A study of Mus musculus with 20 samples.

Results

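Chaperones help proteins fold, and many of their genes respond to heat, cold or the load of unfolded protein in the endoplasmic reticulum (ER). The 40 genes described here were chosen by symbol, with no measured value in the rule: 12 cytosolic heat shock proteins and cochaperones, 3 mitochondrial chaperones, the heat shock regulator Hsf1, the cold-inducible RNA-binding proteins Cirbp and Rbm3, and 22 genes of the ER. All 40 were among the 51456 gene rows of the files, and 39 were among the 10843 genes tested, since Hspb1 was below the minimum level of 1 FPKQ. RNA-seq of poly-A transcripts, with the strand kept, was done on bulk cultures of macrophages grown from mouse bone marrow (BMDMs). The study asked how changes in Trem2, a macrophage and microglia receptor that binds lipids, alter their transcripts. The 20 libraries fall into 4 groups of 5: Trem2 knockout (KO, labelled as a 5 bp change), mice carrying the R47H substitution knocked into Trem2 (R47H), WT Rep6 to Rep10, and WT Rep1 to Rep5. All mice were C57BL/6 and 4 to 5 months old, and all cultures had 6 days of CSF-1 at 50 ng/ml, the factor that drives marrow cells to become macrophages. Loose cells were washed off with cold buffered saline on day 5 or 6, and the adherent cells were scraped off; the labels do not say which libraries were washed on which day. The series text gives 5 animals per genotype and wild-type littermates for each mutant line, but no label ties either wild-type set to a line, so each mutant was compared with the mean of both sets and with each set.

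Heat shock proteins of the Hsp70, Hsp90 and Hsp110 families fold newly made and damaged proteins in the cytosol with J proteins and nucleotide exchange factors, and the transcription factor Hsf1 switches on many of their genes when unfolded proteins accumulate. In the ER, Hspa5 (BiP), Hsp90b1, the lectins calreticulin and calnexin and the disulfide isomerases fold secreted and membrane proteins, and ER-associated degradation (ERAD) removes those that fail to fold. When the ER is overloaded, the sensors Ire1, Atf6 and PERK raise the ER genes, in part through spliced Xbp1 and cleaved Atf6 at ER stress elements; in macrophages, which secrete and take up much material, these genes are expressed at high basal levels.

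The promoters below are shown because Hspa5, Calr, Pdia6 and Herpud1 carry ER stress elements and were higher in R47H than in each wild-type set, while Hspe1 is the heat-shock-element gene that was higher in KO than in each set. These genes were picked for having both traits. Dnajb9, Pdia4, P4hb and Derl1 were also higher in R47H than in each set, with no match found or no window given. Canx, Creld2, Dnajc3, Dnajb11, Hsp90b1 and Syvn1 have a match and were not called in R47H against both sets. Each sequence is the 250 bases before the transcription start in RefSeq on GRCm38.p6, read 5′ to 3′ on the gene's strand, with motif matches in capitals: chr2:34771840-34772089 (plus strand) for Hspa5, chr8:84846932-84847181 (minus strand) for Calr, chr12:17266339-17266588 (plus strand) for Pdia6, chr8:94386179-94386428 (plus strand) for Herpud1 and chr1:55087898-55088147 (plus strand) for Hspe1.
Hspa5: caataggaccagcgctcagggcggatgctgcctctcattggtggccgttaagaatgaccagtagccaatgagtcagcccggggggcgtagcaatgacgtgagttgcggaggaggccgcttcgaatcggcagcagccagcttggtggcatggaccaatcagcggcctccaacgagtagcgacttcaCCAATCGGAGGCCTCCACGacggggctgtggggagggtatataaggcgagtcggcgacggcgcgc
Calr: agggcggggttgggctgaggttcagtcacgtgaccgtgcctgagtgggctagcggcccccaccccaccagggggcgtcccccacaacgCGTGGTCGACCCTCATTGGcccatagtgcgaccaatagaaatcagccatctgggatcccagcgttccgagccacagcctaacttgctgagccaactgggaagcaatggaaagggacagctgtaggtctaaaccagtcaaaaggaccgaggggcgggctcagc
Pdia6: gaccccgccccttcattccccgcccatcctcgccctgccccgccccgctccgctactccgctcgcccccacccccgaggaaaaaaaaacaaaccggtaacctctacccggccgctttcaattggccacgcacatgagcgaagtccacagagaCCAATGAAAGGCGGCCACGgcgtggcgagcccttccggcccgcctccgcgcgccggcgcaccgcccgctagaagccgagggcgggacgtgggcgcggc
Herpud1: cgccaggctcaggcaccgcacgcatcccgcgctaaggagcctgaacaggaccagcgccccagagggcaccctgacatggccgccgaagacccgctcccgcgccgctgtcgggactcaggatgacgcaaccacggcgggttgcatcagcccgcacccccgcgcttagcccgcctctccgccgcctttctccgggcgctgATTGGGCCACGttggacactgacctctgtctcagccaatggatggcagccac
Hspe1: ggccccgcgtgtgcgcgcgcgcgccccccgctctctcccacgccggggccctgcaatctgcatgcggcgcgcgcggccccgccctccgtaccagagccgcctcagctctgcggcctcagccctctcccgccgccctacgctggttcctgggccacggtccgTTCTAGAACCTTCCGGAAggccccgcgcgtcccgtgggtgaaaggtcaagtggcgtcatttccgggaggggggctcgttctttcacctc
The capitals mark ERSE (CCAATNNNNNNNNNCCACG) in Hspa5, Calr and Pdia6, ERSE-II (ATTGGNCCACG) in Herpud1, and 2 overlapping matches to a heat shock element of 3 units (GAANNTTCNNGAA) in Hspe1. Both strands were searched in windows of 300 bases that also held the 50 bases after the start. A window was given for 31 of the 40 members (38 windows). ERSE was found in 0.119% of all 32851 windows and in 8 members: Calr, Canx, Creld2, Dnajc3, Hsp90b1, Hspa5, Pdia6 and Syvn1. ERSE-II occurred in 0.0365% of the windows and in 2 members, Dnajb11 and Herpud1. The heat shock element was present in 0.603% of the windows and in 3 members, Hspd1, Hspe1 and Hsph1; Hspd1 and Hspe1 lie head to head on chromosome 1, so their windows share bases.

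The number of fragments behind 1 FPKQ was on average lower in the mutant libraries than in wild type. FPKQ is the authors' length-scaled unit, in which a fixed upper percentile of protein-coding genes lies near 10 in every library. An FPKQ of 1 in a gene of 2 kb stood for 46.5 to 71.2 fragments, and 15357 to 17914 genes were above 0. By group these fragments averaged 51.9 in KO and 52.8 in R47H, against 62.8 in WT Rep6 to Rep10 and 59.6 in WT Rep1 to Rep5. Genes above 0 averaged 16372, 16106, 17412 and 17028 in the same order. The summed FPKQ averaged 620288, 638276, 587038 and 584064, so fragments per FPKQ are not a measure of depth alone. Estimated fragments in genes with a single transcript overlapped between all groups. They ranged from 2.87e+06 to 3.48e+06 in KO, 2.81e+06 to 3.34e+06 in R47H, 2.81e+06 to 3.74e+06 in WT Rep6 to Rep10 and 2.90e+06 to 3.61e+06 in WT Rep1 to Rep5. Trem2 averaged 24.1 ± 0.435 FPKQ in KO libraries and 652 ± 137 in R47H libraries, against 774 ± 63.0 in WT Rep6 to Rep10 and 838 ± 41.6 in WT Rep1 to Rep5 (SD, n = 5 each). The 7 macrophage markers summed to 32178 to 34909 FPKQ in KO and 25832 to 28945 in R47H, against 22309.6 to 25667 in WT Rep6 to Rep10 and 23361 to 24869 in WT Rep1 to Rep5. They did not all go one way. Against wild type 4 were called higher and 2 lower in KO (limma), beside 28.9% and 24.6% of all tested genes. In R47H 4 were higher and 1 lower, beside 15.2% and 8.62%. Markers of dendritic, T, B, erythroid, stromal and mast cells each summed to at most 1.58 FPKQ in every library. The 9 neutrophil and precursor markers summed to between 39.995 and 107 FPKQ, and of the 3 tested, 1, Ngp, was called higher in R47H against wild type, by 0.54 (adjusted p = 0.00368) on the log2 scale, and none was called in KO (limma; 0 at an unadjusted p under 0.05). Markers of cell division were all called lower in both mutants (10 of 10 tested, median log2 difference -2.31 in KO and -1.16 in R47H against wild type) and none was called between the wild-type sets by limma, nor at an unadjusted p under 0.05. Whether any of this bears on the chaperones was not tested, and in bulk cultures fewer cells of a type and less RNA per cell cannot be told apart.

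Levels in wild-type macrophages spanned a wide range. Averaged over the 10 wild-type libraries, Hspa8, the constitutive Hsp70, was the highest at 1015 ± 134 FPKQ (SD, n = 10). Next came Calr at 525 ± 68.2, Hsp90ab1 at 503 ± 39.5, Hspa5 at 430 ± 87.7 and Hsp90b1 at 365 ± 55.3 FPKQ. From Calr to Hsp90b1 the SDs of neighbours in this order overlapped, while those of Hspa8 and Calr did not. The heat-inducible Hsp70 genes stood at the other end, with 3.38 ± 0.994 FPKQ for Hspa1b and 2.33 ± 0.588 for Hspa1a, and the small heat shock protein Hspb1 was near 0. The median coefficient of variation of the 39 tested members within a group was 5.40% in KO, 9.17% in R47H, 6.24% in WT Rep6 to Rep10 and 5.31% in WT Rep1 to Rep5, beside 8.67%, 12.03%, 8.13% and 6.93% for all tested genes in the same order. RSEM may divide reads between near-identical sequences: at least 10% of the 75-base words of Hspa1a, Hspa1b, Hsp90aa1, Hspb1, Hspa8, Hspd1, Hspe1 and Dnaja1 also occur in transcripts of other genes, so levels of these 8 members are less certain. For Hspa1a and Hspa1b, which lie side by side on chromosome 17 and encode the same protein, these shares were 54.2% and 55.8%, mostly with each other.

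**Figure D1:**
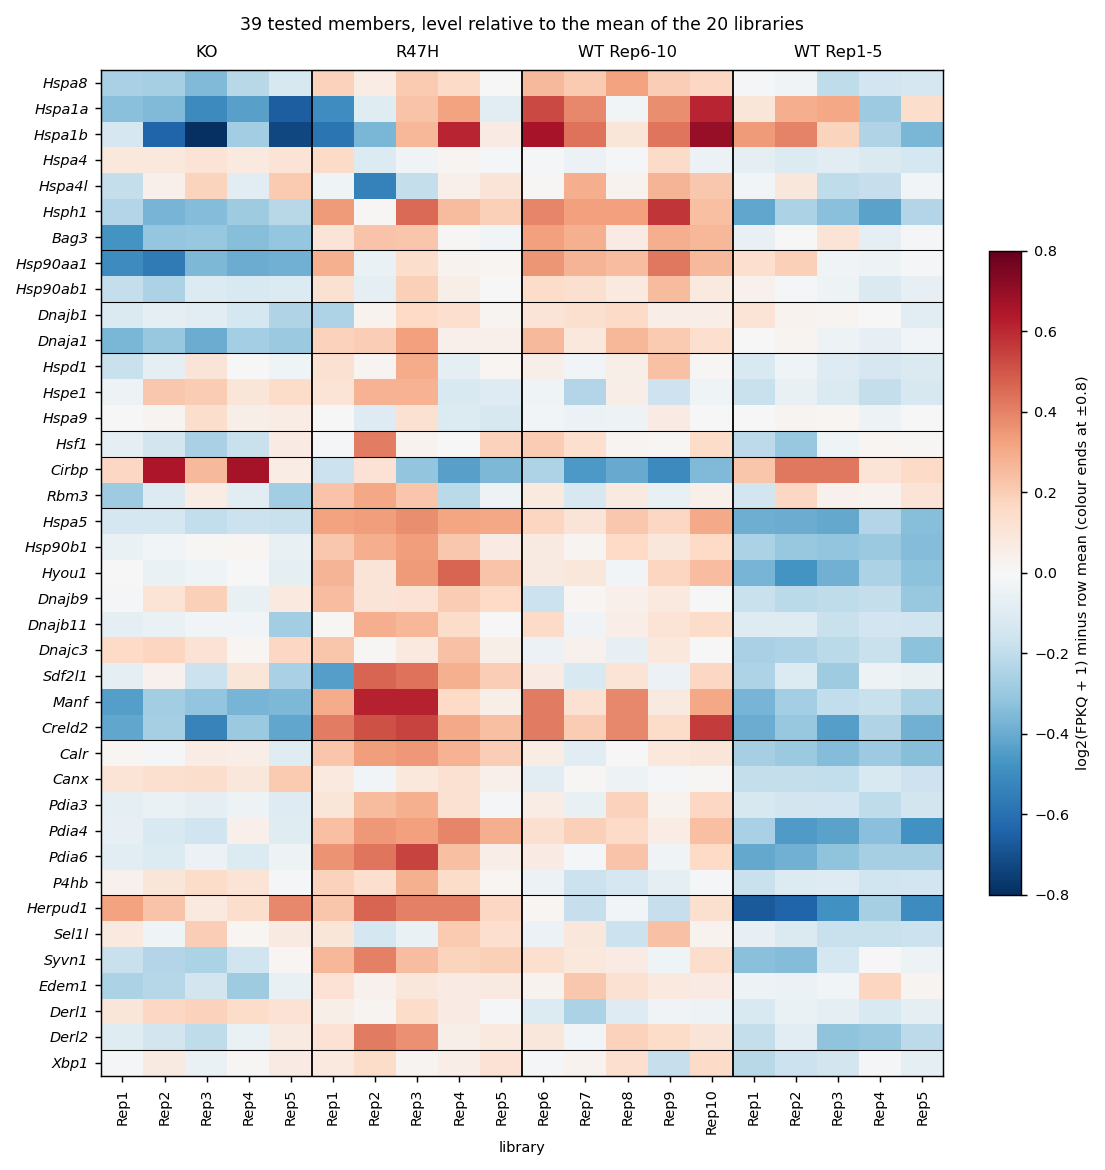
Level of each of the 39 tested members in each library as a difference from that gene's mean over the 20 libraries (log2 of FPKQ + 1), with genes in lines by role and libraries in columns in the order KO, R47H, WT Rep6 to Rep10 and WT Rep1 to Rep5. Most ER genes are on average above their means in R47H and below them in WT Rep1 to Rep5, and most cytosolic heat shock genes are below their means in KO.

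The chaperones differed between the 2 wild-type sets. Of the 39 tested members, 22 were called higher in WT Rep6 to Rep10 than in WT Rep1 to Rep5 (limma, adjusted p under 0.05), where 3.63% of all tested genes were, and 1, the cold-inducible Cirbp, was called lower, beside 2.88% of all genes. The median log2 difference of the members was 0.23, against 0.0023 for all tested genes. Those called higher were 16 of the 22 ER genes and 6 of the 11 tested cytosolic heat shock genes, while none of the 3 mitochondrial chaperones passed (1 did at an unadjusted p under 0.05). The highest rises were of Hsph1, Creld2, Pdia4, Hspa5 and Manf. Under the other scalings, filters and weights tried, 17 to 25 members were called higher. The main differences of a mutant from wild type are therefore given against each set.

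Among ER genes, BiP (Hspa5), the Hsp70 of the ER lumen and the sensor-binding chaperone, showed the split clearly. Hspa5 stood at 405, 404, 388, 395 and 393 FPKQ in KO libraries and at 557, 563, 578, 556 and 552 FPKQ in R47H libraries. In WT Rep6 to Rep10 it stood at 502, 478, 518, 501 and 551 FPKQ, and in WT Rep1 to Rep5 at 339.9, 338, 335, 379 and 352 FPKQ. No library of any group overlapped another group: R47H was highest, WT Rep6 to Rep10 next, then KO, and WT Rep1 to Rep5 lowest. In log2 units R47H differed by 0.14 ± 0.04 (SE, adjusted p = 0.0292) from WT Rep6 to Rep10 and by 0.69 ± 0.04 (SE, adjusted p = 1.56e-08) from WT Rep1 to Rep5. KO was lower than WT Rep6 to Rep10 by a log2 difference of -0.36 ± 0.04 (SE, adjusted p = 8.86e-07) and higher than WT Rep1 to Rep5, by 0.19 ± 0.04 (SE, adjusted p = 0.00168). The wild-type sets differed by 0.55 ± 0.04 (SE, adjusted p = 4.73e-07), with WT Rep6 to Rep10 higher. Without R47H Rep2 or Rep3, or WT Rep6, Rep7 or Rep9, the R47H call against WT Rep6 to Rep10 was lost (adjusted p from 0.0524 to 0.0912). Hspa5 was also not called higher in R47H against both sets after quantile normalization, equal sums or median log ratio scaling. The same held with library weights and with the covariate of genes above 0.

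Dnajb9 (ERdj4) and Dnajc3 (p58IPK) are J proteins of the ER that work with BiP. Dnajb9 measured 23.5, 25.7, 27.2, 22.8 and 25.1 FPKQ in KO and 28.4, 25.6, 25.8, 27.5 and 26.7 FPKQ in R47H. Its wild-type levels were 20.97, 24.1, 24.5, 25.2 and 23.7 FPKQ in WT Rep6 to Rep10 and 20.9, 20.3, 20.5, 20.7 and 19.03 FPKQ in WT Rep1 to Rep5. R47H libraries lay above those of both wild-type sets, with log2 differences of 0.17 ± 0.05 (SE, adjusted p = 0.024) against WT Rep6 to Rep10 and 0.38 ± 0.05 (SE, adjusted p = 3.45e-05) against WT Rep1 to Rep5. KO was called against WT Rep1 to Rep5, at 0.28 ± 0.05 (SE, adjusted p = 0.000261), but its difference from WT Rep6 to Rep10 was 0.07 ± 0.05 (SE, adjusted p = 0.308). Dnajc3 reached 36.8, 37.00, 35.6, 33.2 and 36.9 FPKQ in KO and 38.5, 33.03, 34.7, 38.8 and 33.9 FPKQ in R47H. In wild type it was 31.7, 33.7, 31.3, 34.8 and 32.7 FPKQ in WT Rep6 to Rep10 and 27.3, 27.4, 28.1, 28.8 and 25.9 FPKQ in WT Rep1 to Rep5. Its KO libraries were above all of WT Rep1 to Rep5 and overlapped WT Rep6 to Rep10, and Dnajc3 was called higher in KO against both sets, by 0.12 ± 0.05 (SE, adjusted p = 0.0446) and 0.37 ± 0.05 (SE, adjusted p = 4.34e-06) for WT Rep6 to Rep10 and WT Rep1 to Rep5. The call against WT Rep6 to Rep10 was lost without KO Rep1, Rep2, Rep3 or Rep5, WT Rep6, Rep8 or Rep10, or WT Rep1, Rep2 or Rep3 (adjusted p from 0.0514 to 0.106). Dnajb9 in R47H missed the threshold against WT Rep6 to Rep10 without R47H Rep1 or WT Rep6 (adjusted p of 0.0585 and 0.0795). Its R47H call against both sets was also lost with quantile normalization, equal sums, median log ratio scaling and the covariate of genes above 0.

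Manf and Creld2 encode soluble ER proteins that are induced by ER stress. Manf measured 52.5, 58.8, 57.3, 55.1 and 55.6 FPKQ in KO and 88.1, 110.4, 110.3, 80.2 and 74.03 FPKQ in R47H. The wild-type values were 96.02, 77.98, 93.6, 75.3 and 88.8 FPKQ in WT Rep6 to Rep10 and 55.1, 59.05, 62.3, 63.2 and 59.99 FPKQ in WT Rep1 to Rep5. KO overlapped WT Rep1 to Rep5 and lay below every library of WT Rep6 to Rep10, with a log2 difference of -0.61 ± 0.09 (SE, adjusted p = 1.54e-05) from that set. R47H overlapped WT Rep6 to Rep10 and lay above WT Rep1 to Rep5, with log2 differences of 0.09 ± 0.09 (SE, adjusted p = 0.566) and 0.60 ± 0.09 (SE, adjusted p = 0.000124) from these sets. Creld2 measured 13.2, 14.7, 12.1, 14.4 and 13.2 FPKQ in KO and 24.1, 25.9, 26.5, 22.4 and 21.4 FPKQ in R47H. It stood at 24.2, 20.8, 23.7, 19.97 and 26.9 FPKQ in WT Rep6 to Rep10 and at 13.4, 14.3, 12.9, 14.999 and 13.5 FPKQ in WT Rep1 to Rep5. R47H and WT Rep6 to Rep10 overlapped at the higher level, and KO and WT Rep1 to Rep5 at the lower one. The log2 difference of Creld2 in KO was -0.73 ± 0.08 (SE, adjusted p = 8.34e-08) against WT Rep6 to Rep10 and -0.03 ± 0.08 (SE, adjusted p = 0.766) against WT Rep1 to Rep5. That in R47H was 0.06 ± 0.08 (SE, adjusted p = 0.633) against WT Rep6 to Rep10 and 0.76 ± 0.08 (SE, adjusted p = 9.36e-07) against WT Rep1 to Rep5. Of the other ER chaperones, Hsp90b1 (GRP94) and Hyou1, an exchange factor of BiP, were higher in KO than in WT Rep1 to Rep5, by 0.28 and 0.33 on the log2 scale, while Hsp90b1 was lower than in WT Rep6 to Rep10, at -0.12 ± 0.05 (SE, adjusted p = 0.0355), and Hyou1 differed from that set by -0.14 ± 0.06 (SE, adjusted p = 0.0586). Dnajb11 (ERdj3) was lower in KO than in WT Rep6 to Rep10, at -0.18 ± 0.06 (SE, adjusted p = 0.0201), and its partner Sdf2l1 was called in no comparison.

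Canx, the membrane lectin of the glycoprotein folding cycle, was higher in KO than in each wild-type set. It measured 211, 213, 216, 209 and 226 FPKQ in KO and 207, 193, 207, 213 and 201 FPKQ in R47H. In wild type it was 184, 197, 190.3, 194 and 197 FPKQ in WT Rep6 to Rep10 and 172, 171, 171, 179.6 and 174 FPKQ in WT Rep1 to Rep5. KO libraries lay above all 10 wild-type libraries, with log2 differences of 0.16 ± 0.04 (SE, adjusted p = 0.00149) from WT Rep6 to Rep10 and 0.31 ± 0.04 (SE, adjusted p = 1.21e-06) from WT Rep1 to Rep5. P4hb, a disulfide isomerase that is also a subunit of prolyl hydroxylase, measured 257, 268, 277, 269.9 and 249 FPKQ in KO and 285, 274, 304, 277 and 252 FPKQ in R47H. Its levels were 242, 222, 227, 237 and 248 FPKQ in WT Rep6 to Rep10 and 221, 232, 233, 224 and 225 FPKQ in WT Rep1 to Rep5. Both mutants lay above all 10 wild-type libraries, and the wild-type sets overlapped, with a log2 difference of 0.05 ± 0.05 (SE, adjusted p = 0.562). The log2 difference of P4hb in KO was 0.16 ± 0.05 (SE, adjusted p = 0.00751) from WT Rep6 to Rep10 and 0.22 ± 0.05 (SE, adjusted p = 0.0011) from WT Rep1 to Rep5, and in R47H it was 0.24 ± 0.05 (SE, adjusted p = 0.00118) and 0.29 ± 0.05 (SE, adjusted p = 0.000214) from these sets.

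Pdia4, a disulfide isomerase with several thioredoxin-like domains, went in opposite directions in KO against the 2 sets. It measured 48.5, 46.7, 45.5, 52.3 and 47.6 FPKQ in KO and 60.3, 65.03, 64.3, 67.1 and 62.4 FPKQ in R47H. Wild-type values were 55.9, 58.2, 56.7, 53.1 and 60.5 FPKQ in WT Rep6 to Rep10 and 42.3, 37.00, 37.6, 40.2 and 36.1 FPKQ in WT Rep1 to Rep5. KO lay below all of WT Rep6 to Rep10 and above all of WT Rep1 to Rep5, with log2 differences of -0.24 ± 0.05 (SE, adjusted p = 0.000558) and 0.31 ± 0.05 (SE, adjusted p = 4.16e-05) for these sets. For R47H the differences of Pdia4 were 0.16 ± 0.05 (SE, adjusted p = 0.0245) against WT Rep6 to Rep10 and 0.71 ± 0.05 (SE, adjusted p = 4.86e-08) against WT Rep1 to Rep5. The first was lost without R47H Rep2 or Rep4 or WT Rep6 or Rep9 (adjusted p from 0.0536 to 0.0668). With quantile normalization, equal sums, median log ratio scaling or library weights, Pdia4 was not called in R47H against both sets. Calr, the soluble lectin paired with Canx, averaged 576 ± 25.2 FPKQ in KO and 694 ± 32.3 FPKQ in R47H, against 586 ± 30.9 in WT Rep6 to Rep10 and 463 ± 11.3 in WT Rep1 to Rep5 (SD, n = 5 each). R47H was above every wild-type library for Calr, and its log2 difference from WT Rep6 to Rep10 was 0.24 ± 0.05 (SE, adjusted p = 0.000872). Pdia6, which reduces disulfides and binds Ire1, averaged 109 ± 2.51 FPKQ in KO and 145 ± 18.5 in R47H, against 122 ± 9.44 in WT Rep6 to Rep10 and 91.2 ± 4.20 in WT Rep1 to Rep5. Its call in R47H against WT Rep6 to Rep10, 0.24 ± 0.07 (SE, adjusted p = 0.019), was lost without R47H Rep2 or Rep3 or WT Rep7 or Rep9 (adjusted p from 0.0513 to 0.0555). With quantile normalization, equal sums, library weights or the covariate of genes above 0, Pdia6 was not called in R47H against both sets. Pdia3 (ERp57), the isomerase that works with both lectins, had a log2 difference in R47H of 0.07 ± 0.05 (SE, adjusted p = 0.363) against WT Rep6 to Rep10 and 0.31 ± 0.05 (SE, adjusted p = 0.000422) against WT Rep1 to Rep5.

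In ERAD, Herpud1, which gathers the degradation complex in the ER membrane, had the largest positive difference of the members in both mutants against the mean of the wild-type sets. It measured 40.7, 37.9, 34.1, 35.6 and 42.4 FPKQ in KO and 37.7, 44.97, 43.1, 43.00 and 36.3 FPKQ in R47H. WT Rep6 to Rep10 stood at 32.7, 28.3, 31.7, 28.3 and 35.3 FPKQ and WT Rep1 to Rep5 at 19.9, 20.3, 22.8, 26.7 and 22.5 FPKQ. R47H lay above all wild-type libraries, and KO lay above all of WT Rep1 to Rep5 and overlapped WT Rep6 to Rep10. Against WT Rep6 to Rep10 the log2 difference of Herpud1 was 0.28 ± 0.08 (SE, adjusted p = 0.00844) in KO and 0.38 ± 0.08 (SE, adjusted p = 0.00247) in R47H. Against WT Rep1 to Rep5 it was 0.74 ± 0.08 (SE, adjusted p = 3.69e-07) in KO and 0.84 ± 0.08 (SE, adjusted p = 8.63e-07) in R47H. Derl1, a channel protein of ERAD, measured 76.8, 80.7, 81.7, 79.5 and 77.7 FPKQ in KO and 74.01, 73.00, 79.5, 75.1 and 71.1 FPKQ in R47H. Its wild-type values were 66.3, 59.97, 66.8, 70.3 and 69.6 FPKQ in WT Rep6 to Rep10 and 65.8, 69.2, 68.2, 65.95 and 67.9 FPKQ in WT Rep1 to Rep5. Both mutants lay above all 10 wild-type libraries for Derl1, whose log2 difference from the mean of both sets was 0.24 ± 0.04 (SE, adjusted p = 1.98e-05) in KO and 0.15 ± 0.04 (SE, adjusted p = 0.00584) in R47H. Without R47H Rep3 or WT Rep1 or Rep4, Derl1 in R47H missed the threshold against WT Rep1 to Rep5 (adjusted p from 0.0593 to 0.0659). Its R47H call against both sets was also lost after quantile normalization, equal sums or median log ratio scaling. The same held with library weights and with the covariate of genes above 0.

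Edem1, a lectin that hands misfolded glycoproteins to ERAD, was the ER gene called lower in KO against both sets, at 71.2 ± 4.59 FPKQ in KO, 87.5 ± 4.48 in WT Rep6 to Rep10 and 82.5 ± 5.38 in WT Rep1 to Rep5 (SD, n = 5 each). Its log2 difference in KO was -0.29 ± 0.05 (SE, adjusted p = 5.62e-05) from WT Rep6 to Rep10 and -0.21 ± 0.05 (SE, adjusted p = 0.00209) from WT Rep1 to Rep5, and in R47H -0.03 ± 0.05 (SE, adjusted p = 0.77) and 0.06 ± 0.05 (SE, adjusted p = 0.443) from these sets. Sel1l and the ubiquitin ligase Syvn1 (Hrd1), which form the core retrotranslocation complex, were not called in R47H against WT Rep6 to Rep10, with log2 differences of 0.03 ± 0.07 (SE, adjusted p = 0.842) and 0.18 ± 0.07 (SE, adjusted p = 0.0771), nor was Derl2, at 0.10 ± 0.07 (SE, adjusted p = 0.342). Against WT Rep1 to Rep5 the R47H differences were 0.19 ± 0.07 (SE, adjusted p = 0.0602) for Sel1l, 0.43 ± 0.07 (SE, adjusted p = 0.000193) for Syvn1 and 0.43 ± 0.07 (SE, adjusted p = 0.000272) for Derl2. Xbp1, whose spliced form drives many ERAD genes, measured 103, 109, 100.1, 105 and 109 FPKQ in KO and 109.7, 115, 106, 108 and 113 FPKQ in R47H. In wild type it was 104, 106, 114, 91.5 and 116 FPKQ in WT Rep6 to Rep10 and 89.1, 92.3, 94.1, 103 and 98.3 FPKQ in WT Rep1 to Rep5. R47H overlapped WT Rep6 to Rep10 and lay above WT Rep1 to Rep5, from which it differed by 0.21 ± 0.06 (SE, adjusted p = 0.0129) on the log2 scale. KO differed from that set by 0.14 ± 0.06 (SE, adjusted p = 0.0482) and overlapped it. The values are of the gene as a whole and do not separate the spliced form.

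**Figure D2:**
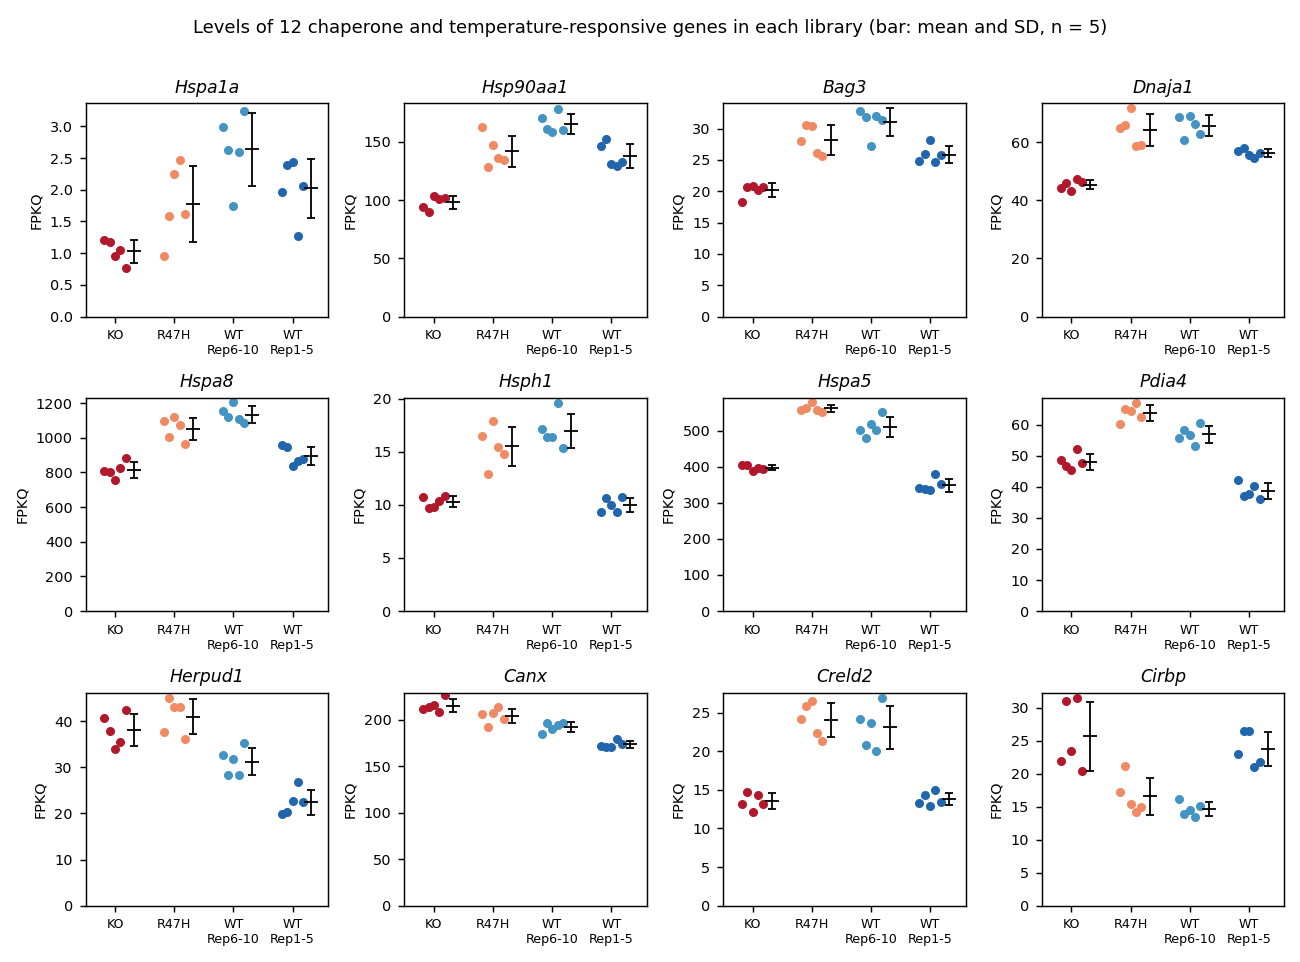
FPKQ of selected members in each library (points), with the mean and SD of each group of 5 (bars), in the order KO, R47H, WT Rep6 to Rep10 and WT Rep1 to Rep5. In Hspa5 no group overlaps another; in Hsp90aa1 the 5 KO libraries lie below all other libraries.

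Most cytosolic heat shock genes were lower in KO than in WT Rep6 to Rep10. Of the 11 tested, 9 were called lower against WT Rep6 to Rep10 and none higher (limma; none at an unadjusted p under 0.05 either), where 24.7% and 27.6% of all tested genes were, with a median log2 difference of -0.52. Against WT Rep1 to Rep5, 5 were lower (Hspa1a, Hspa1b, Bag3, Hsp90aa1 and Dnaja1) and 1, the Hsp110 relative Hspa4, was higher, beside 19.6% and 24.7% of all genes, with a median of -0.15. In R47H, 1 (Hsp90aa1) was lower against WT Rep6 to Rep10, near the 8.4% of all genes, and 3 (Hspa8, Hsph1 and Dnaja1) were higher against WT Rep1 to Rep5, beside 13.9% of all genes, with medians of -0.12 and 0.10. The medians of all tested genes in these 4 comparisons lay between 0.01 and 0.04. With each library scaled to the same sum, 8 of the 11 were called lower in R47H than in WT Rep6 to Rep10, against 1 on the deposited scale. Of the 10843 tested genes 1825 were then lower, against 911, and their median was -0.07, against 0.04. The cytosolic median minus that of all genes was -0.17, against -0.16 on the deposited scale. After quantile normalization and after median log ratio scaling 4 of the 11 were lower, beside 1168 and 1119 of all tested genes.

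Hsp90aa1, the inducible form of the cytosolic Hsp90, measured 93.9, 89.7, 104, 101 and 102 FPKQ in KO and 163, 128, 147, 136 and 135 FPKQ in R47H. Wild-type libraries had 170.2, 161, 158, 179 and 159.9 FPKQ in WT Rep6 to Rep10 and 146, 152, 131, 129 and 132 FPKQ in WT Rep1 to Rep5. Every KO library was below every other library. Hsp90aa1 fell in KO by a log2 difference of -0.75 ± 0.06 (SE, adjusted p = 5.16e-09) against WT Rep6 to Rep10 and -0.49 ± 0.06 (SE, adjusted p = 2.95e-06) against WT Rep1 to Rep5, and it was the cytosolic gene called lower in R47H against WT Rep6 to Rep10, at -0.23 ± 0.06 (SE, adjusted p = 0.0164). The constitutive Hsp90ab1 averaged 435 ± 18.98 FPKQ in KO and 506 ± 35.6 in R47H, against 534 ± 27.5 in WT Rep6 to Rep10 and 472 ± 18.5 in WT Rep1 to Rep5 (SD, n = 5 each).

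Hspa8, which folds new chains and uncoats clathrin vesicles, measured 806, 804, 754, 828 and 884 FPKQ in KO and 1096, 1004, 1118, 1073 and 964 FPKQ in R47H. The wild-type sets stood at 1155, 1118, 1207, 1108 and 1084 FPKQ (WT Rep6 to Rep10) and 956, 945, 836, 867 and 878 FPKQ (WT Rep1 to Rep5). KO lay below all of WT Rep6 to Rep10, with a log2 difference of -0.48 ± 0.06 (SE, adjusted p = 4.84e-07), and overlapped WT Rep1 to Rep5, from which its difference was -0.14 ± 0.06 (SE, adjusted p = 0.0551). The heat-inducible Hspa1a measured 1.20, 1.17, 0.948, 1.06 and 0.76 FPKQ in KO and 0.962, 1.59, 2.24, 2.46 and 1.61 FPKQ in R47H. Its levels were 2.99, 2.63, 1.74, 2.59 and 3.24 FPKQ in WT Rep6 to Rep10 and 1.97, 2.39, 2.44, 1.27 and 2.06 FPKQ in WT Rep1 to Rep5. KO lay below both wild-type sets, by log2 differences of -0.83 ± 0.15 (SE, adjusted p = 7.05e-05) for WT Rep6 to Rep10 and -0.57 ± 0.15 (SE, adjusted p = 0.00351) for WT Rep1 to Rep5. For its twin Hspa1b the values were 2.24, 1.28, 0.984, 1.94 and 1.15 FPKQ in KO and 1.38, 1.77, 3.28, 4.44 and 2.72 FPKQ in R47H. Wild-type libraries had 4.62, 3.82, 2.81, 3.80 and 4.78 FPKQ in WT Rep6 to Rep10 and 3.50, 3.69, 3.03, 2.01 and 1.77 FPKQ in WT Rep1 to Rep5. KO was below all of WT Rep6 to Rep10, at a log2 difference of -0.99 ± 0.20 (SE, adjusted p = 0.000394), and overlapped WT Rep1 to Rep5, at -0.59 ± 0.20 (SE, adjusted p = 0.0251). Because Hspa1a and Hspa1b share most of their sequence, these are not independent readings, and the call of Hspa1b against WT Rep1 to Rep5 was lost without KO Rep2, Rep3 or Rep5 or WT Rep1, Rep2 or Rep3 (adjusted p from 0.0509 to 0.0709).

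Hsph1 (Hsp105), an Hsp110 exchange factor, differed most between the wild-type sets. It measured 10.7, 9.69, 9.84, 10.4 and 10.9 FPKQ in KO and 16.5, 12.9, 17.9, 15.5 and 14.8 FPKQ in R47H. In wild type it was 17.1, 16.4, 16.4, 19.5 and 15.3 FPKQ in WT Rep6 to Rep10 and 9.33, 10.6, 9.97, 9.28 and 10.7 FPKQ in WT Rep1 to Rep5. R47H overlapped WT Rep6 to Rep10 and KO overlapped WT Rep1 to Rep5, and the first pair lay above the second with no overlap. The log2 difference in KO was -0.66 ± 0.07 (SE, adjusted p = 1.77e-07) against WT Rep6 to Rep10 and 0.04 ± 0.07 (SE, adjusted p = 0.675) against WT Rep1 to Rep5. In R47H it was -0.12 ± 0.07 (SE, adjusted p = 0.253) against WT Rep6 to Rep10 and 0.58 ± 0.07 (SE, adjusted p = 1.04e-05) against WT Rep1 to Rep5. WT Rep6 to Rep10 differed from WT Rep1 to Rep5 by 0.71 ± 0.07 (SE, adjusted p = 1.32e-05).

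Bag3, which links Hsp70 to selective autophagy, measured 18.3, 20.7, 20.9, 20.3 and 20.7 FPKQ in KO and 27.97, 30.6, 30.4, 26.2 and 25.6 FPKQ in R47H. WT Rep6 to Rep10 had 32.8, 31.8, 27.3, 32.01 and 31.4 FPKQ and WT Rep1 to Rep5 24.9, 25.9, 28.1, 24.6 and 25.7 FPKQ. The KO libraries were below all others, at log2 differences of -0.60 ± 0.06 (SE, adjusted p = 4.92e-08) from WT Rep6 to Rep10 and -0.34 ± 0.06 (SE, adjusted p = 9.61e-05) from WT Rep1 to Rep5. Dnaja1, a J protein that feeds clients to Hspa8, measured 44.1, 46.1, 43.2, 47.3 and 46.5 FPKQ in KO and 65.1, 65.8, 71.9, 58.9 and 59.01 FPKQ in R47H. Its wild-type values were 68.8, 60.8, 69.04, 66.4 and 63.01 FPKQ in WT Rep6 to Rep10 and 56.98, 58.04, 55.6, 54.6 and 56.3 FPKQ in WT Rep1 to Rep5. Again all 5 KO libraries lay lowest, and the log2 difference was -0.52 ± 0.05 (SE, adjusted p = 5.04e-08) from WT Rep6 to Rep10 and -0.30 ± 0.05 (SE, adjusted p = 8.02e-05) from WT Rep1 to Rep5. The inducible J protein Dnajb1 averaged 12.6 ± 0.634 FPKQ in KO and 14.1 ± 1.61 in R47H, against 14.9 ± 0.486 in WT Rep6 to Rep10 and 14.04 ± 0.726 in WT Rep1 to Rep5. Dnajb1 was called lower in KO against WT Rep6 to Rep10, at -0.23 ± 0.06 (SE, adjusted p = 0.00451), and its difference from WT Rep1 to Rep5 was -0.15 ± 0.06 (SE, adjusted p = 0.0664).

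Hspa4 and Hspa4l, both relatives of Hsp110, did not share this direction. Hspa4 averaged 66.2 ± 0.74 FPKQ in KO and 62.3 ± 4.29 in R47H, against 62.3 ± 3.81 in WT Rep6 to Rep10 and 57.6 ± 1.06 in WT Rep1 to Rep5 (SD, n = 5 each). It was called higher in KO against WT Rep1 to Rep5, at 0.20 ± 0.05 (SE, adjusted p = 0.00168), and its difference from WT Rep6 to Rep10 was 0.09 ± 0.05 (SE, adjusted p = 0.123). Hspa4l passed in none of the comparisons of a mutant with a wild-type set. Its log2 difference in KO was -0.02 ± 0.09 (SE, adjusted p = 0.889) from the mean of both. Hspb1, known as Hsp27 in humans, was at or near the detection limit: it was listed at 0, 0.381, 0.377, 0.25 and 0 FPKQ in KO and at 0.0368, 0.218, 0, 0 and 0.0408 in R47H, and at 0, 0, 0, 0.0667 and 0.0339 in WT Rep6 to Rep10 and 0, 0.129, 0, 0 and 0.115 in WT Rep1 to Rep5. No test was made for it.

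Hsf1 itself measured 11.1, 10.4, 9.59, 10.2 and 12.2 FPKQ in KO and 11.5, 15.8, 11.9, 11.6 and 13.3 FPKQ in R47H. The wild-type libraries had 13.5, 12.9, 11.8, 11.7 and 13.01 FPKQ in WT Rep6 to Rep10 and 9.94, 9.25, 11.4, 11.8 and 11.7 FPKQ in WT Rep1 to Rep5. All groups overlapped. Hsf1 was called lower in KO against WT Rep6 to Rep10, with a log2 difference of -0.22 ± 0.08 (SE, adjusted p = 0.0322), and its difference against WT Rep1 to Rep5 was -0.01 ± 0.08 (SE, adjusted p = 0.906). Hsf1 is controlled largely at the protein level, which these data do not measure.

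None of the 3 mitochondrial chaperones was called lower in KO against either wild-type set (limma; none at an unadjusted p under 0.05). Hspe1 (Hsp10), the cochaperonin of Hspd1, measured 108, 129.8, 129, 119.5 and 124 FPKQ in KO and 121, 136, 136, 102 and 104 FPKQ in R47H. In wild type it was 109, 94.9, 116, 99.6 and 109 FPKQ in WT Rep6 to Rep10 and 98.6, 107, 103, 97.9 and 102 FPKQ in WT Rep1 to Rep5. KO lay above all of WT Rep1 to Rep5 and overlapped WT Rep6 to Rep10, with log2 differences of 0.21 ± 0.08 (SE, adjusted p = 0.0326) for WT Rep6 to Rep10 and 0.26 ± 0.08 (SE, adjusted p = 0.011) for WT Rep1 to Rep5. The first was lost without KO Rep2, Rep3 or Rep5 or WT Rep7 or Rep9 (adjusted p from 0.0564 to 0.0926). Hspd1 (Hsp60), transcribed from the opposite side of the same promoter region, averaged 90.2 ± 6.45 FPKQ in KO, 97.7 ± 9.99 in R47H, 96.6 ± 6.99 in WT Rep6 to Rep10 and 86.04 ± 2.41 in WT Rep1 to Rep5, and its log2 difference in KO was -0.10 ± 0.06 (SE, adjusted p = 0.21) from WT Rep6 to Rep10 and 0.06 ± 0.06 (SE, adjusted p = 0.441) from WT Rep1 to Rep5. Hspa9 (mortalin), which imports proteins into mitochondria, was called in neither mutant against either set, and its log2 difference from the mean of both was 0.06 ± 0.04 (SE, adjusted p = 0.218) in KO and -0.04 ± 0.04 (SE, adjusted p = 0.516) in R47H.

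Of the cold-inducible RNA-binding proteins, Cirbp measured 21.9, 31.01, 23.5, 31.4 and 20.3 FPKQ in KO and 17.2, 21.2, 15.5, 14.2 and 14.9 FPKQ in R47H. Wild-type libraries had 16.2, 13.9, 14.49, 13.4 and 15.04 FPKQ in WT Rep6 to Rep10 and 22.9, 26.4, 26.4, 21.1 and 21.7 FPKQ in WT Rep1 to Rep5. KO and WT Rep1 to Rep5 overlapped at the higher level, and all of WT Rep6 to Rep10 were below both. The log2 difference of Cirbp in KO was 0.75 ± 0.12 (SE, adjusted p = 1.58e-05) against WT Rep6 to Rep10 and 0.09 ± 0.12 (SE, adjusted p = 0.547) against WT Rep1 to Rep5. In R47H it was 0.16 ± 0.12 (SE, adjusted p = 0.359) against WT Rep6 to Rep10 and -0.50 ± 0.12 (SE, adjusted p = 0.00416) against WT Rep1 to Rep5, and the wild-type sets differed by -0.66 ± 0.12 (SE, adjusted p = 0.00181). Rbm3, the other cold-inducible gene, measured 207, 234, 264, 237 and 208 FPKQ in KO and 296, 314, 294, 218 and 245 FPKQ in R47H. Its wild-type values were 267, 231, 265, 242 and 260.3 FPKQ in WT Rep6 to Rep10 and 228, 283, 259, 258 and 273 FPKQ in WT Rep1 to Rep5. All groups overlapped for Rbm3, which was not called in either mutant against either wild-type set. Its log2 difference in KO was -0.16 ± 0.08 (SE, adjusted p = 0.0912) and in R47H 0.08 ± 0.08 (SE, adjusted p = 0.497) against the mean of both.

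**Figure D3:**
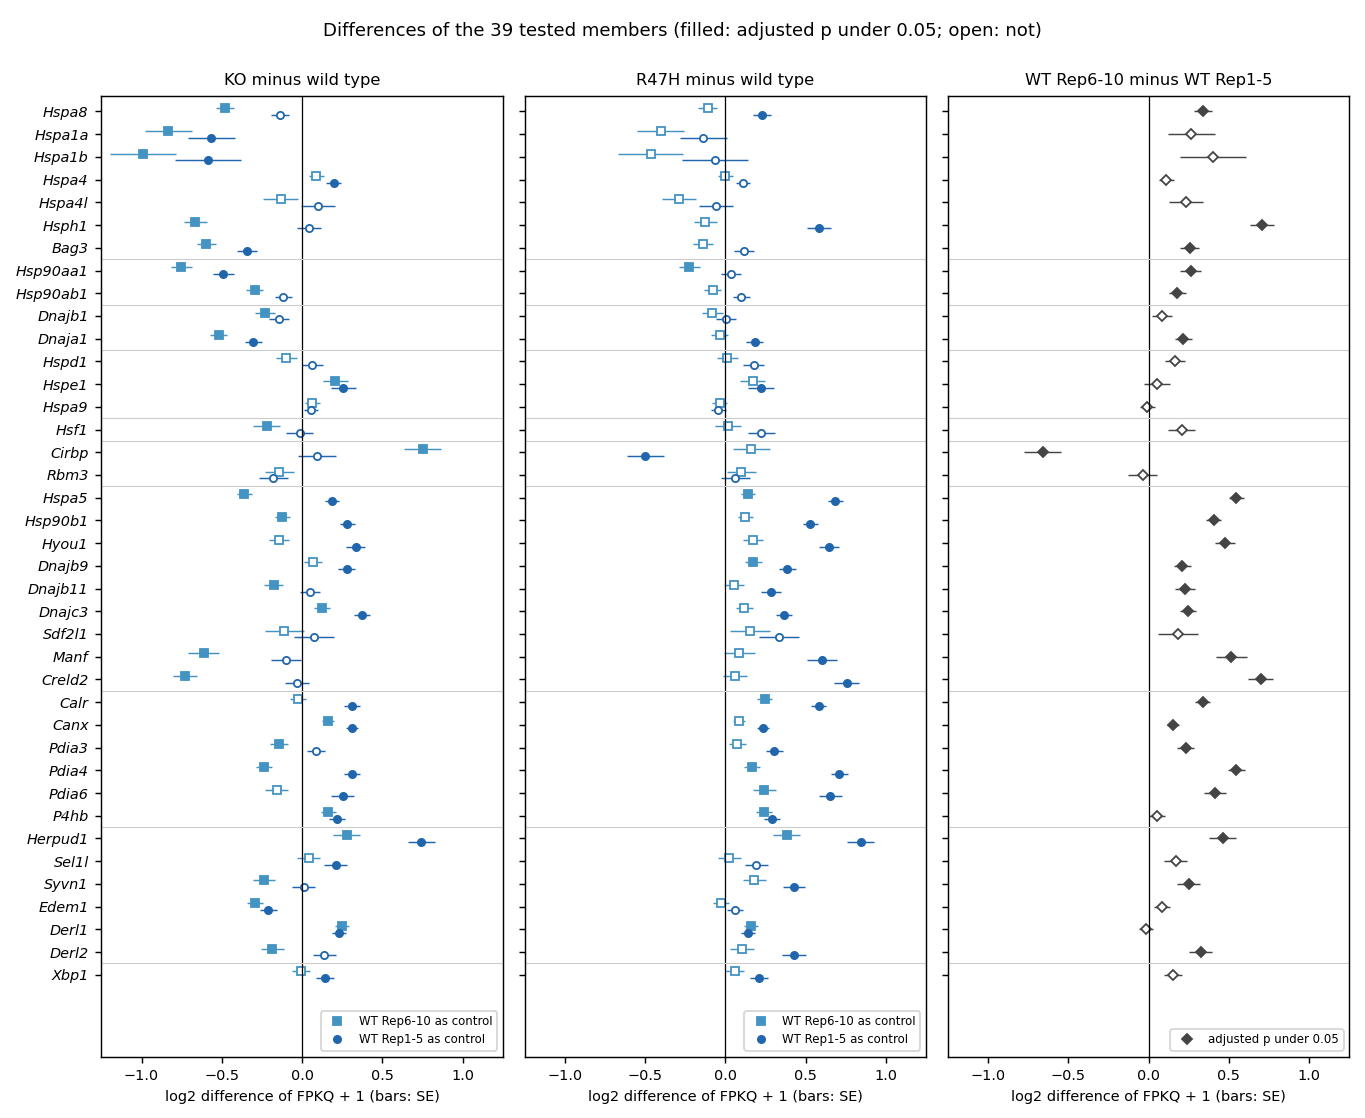
Log2 difference of each tested member with its SE (bars) in KO (left) and R47H (middle) against each wild-type set, and between the wild-type sets (right); filled symbols have a limma adjusted p under 0.05. For most ER genes the KO values against WT Rep1 to Rep5 lie to the right of those against WT Rep6 to Rep10, on both sides of 0.

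Against the mean of both wild-type sets, the counts of members called were unlike in the 2 mutants, and they changed with the control set. In KO against the mean of both sets, 10 members were higher and 12 lower, beside 28.9% and 24.6% of all tested genes, and the members' median log2 difference was -0.02, against 0.01 for all genes. In R47H, 20 were higher and none lower (limma; 1 lower at an unadjusted p under 0.05), beside 15.2% and 8.62% of all genes, with a median of 0.16 against 0.04. Of the R47H calls, 18 were ER genes, and the others were Hsph1 and Hspe1. Neither was called against WT Rep6 to Rep10 (adjusted p = 0.253 for Hsph1, whose difference there was below 0, and 0.133 for Hspe1). The Hspe1 call was also lost in 9 fits without 1 library and after quantile normalization, equal sums or median log ratio scaling. The Hsph1 call was lost with equal sums, with the covariate of genes above 0 and with the 10 wild-type libraries as 1 group. The higher calls made up 63.8% of all calls in R47H against wild type on the deposited scale, 50.0% after quantile normalization, 49.9% after scaling by the median log ratio and 21.3% with equal sums. The 18 ER calls became 15, 17 and 12 under these, with no ER gene called lower. The median of all tested genes in R47H was 0.04 on the deposited scale and -0.07 with equal sums, and the ER median lay 0.23 and 0.22 above it. In KO the higher calls were 54.1% of all calls, and 36.5% with equal sums, under which the ER genes had 5 calls higher and 7 lower.

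Set against WT Rep1 to Rep5, 16 members were higher and 6 lower in KO, where 24.7% and 19.6% of all genes were. Against WT Rep6 to Rep10 the counts were 7 and 20, beside 27.6% and 24.7%. The ER genes held most of this turn, with 14 higher and 1 lower in KO against WT Rep1 to Rep5 (median 0.21), and 5 higher and 10 lower against WT Rep6 to Rep10 (median -0.13). For R47H against WT Rep1 to Rep5 the counts were 23 members higher and 1 (Cirbp) lower, beside 13.9% and 7.22% of all genes, and against WT Rep6 to Rep10 they were 8 and 1, beside 12.7% and 8.4%. All 8 higher in R47H against WT Rep6 to Rep10 were ER genes. The 22 ER genes had a median log2 difference in R47H of 0.41 against WT Rep1 to Rep5 and 0.13 against WT Rep6 to Rep10, where 8 were higher and none lower (0 at an unadjusted p under 0.05). The median of all tested genes was 0.04 in each comparison. Against WT Rep1 to Rep5, 19 ER genes were higher and 0 lower. Against WT Rep6 to Rep10, 3, 3 and 5 ER genes were higher after quantile normalization, equal sums and median log ratio scaling. There the ER median minus that of all genes was 0.095 on the deposited scale and 0.045, 0.082 and 0.091 under these scalings.

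Some calls held against both sets. In KO, 6 members (15.4%) were higher against each, Hspe1, Dnajc3, Canx, P4hb, Herpud1 and Derl1, where 20.8% of all genes were, and 6 (15.4%) were lower, Hspa1a, Hspa1b, Bag3, Hsp90aa1, Dnaja1 and Edem1, where 17.2% of all genes were. A further 3 members (7.69%), Hspa5, Hsp90b1 and Pdia4, were called in opposite directions against the 2 sets, as were 0.083% of all genes, or 9 of 10843. In R47H, 8 members (20.5%) were higher against both, Hspa5, Dnajb9, Calr, Pdia4, Pdia6, P4hb, Herpud1 and Derl1, where 6.79% of all genes were. None was lower against both, where 4.92% of all genes were, and none was called in opposite directions, where 0.0553% were. With equal sums or quantile normalization 3 members (Calr, P4hb and Herpud1) were higher in R47H against both and 1, Hspa9, was lower, and with equal sums the KO genes higher against both were reduced to Derl1 while 11 were lower. Median log ratio scaling left 4 members higher in R47H against both (Calr, Pdia6, P4hb and Herpud1). Library weights left 4 (Dnajb9, Calr, P4hb and Herpud1), and the covariate of genes above 0 left 4 (Calr, Pdia4, P4hb and Herpud1). At an unadjusted p under 0.05 against each set, the number of members lower in R47H was again 0 on the deposited scale.

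R47H was also set directly against KO, without a wild-type set. A difference between the 2 mutant lines or their cultures cannot be told apart here from one between the alleles. The wild-type sets differed in a like way, with 22 members higher and 1, Cirbp, lower in WT Rep6 to Rep10 (median 0.23). Between the mutants, 23 members were higher in R47H and 1, Cirbp, was lower, beside 24.0% and 18.9% of all tested genes. The median was 0.24, against 0.03 for all genes. The higher calls were 8 of 11 cytosolic and 13 of 22 ER genes, with median log2 differences of 0.43 and 0.25. On the scale of log2(FPKQ + 1), which understates changes of low genes, Creld2 had the largest, at 0.79 ± 0.08 (SE, adjusted p = 1.12e-07), followed by Manf at 0.70 ± 0.09 (SE, adjusted p = 7.32e-06). The ratios of mean FPKQ in R47H over KO were 1.79 for Hspa1b, 1.78 for Creld2, 1.73 for Hspa1a and 1.66 for Manf. Cirbp differed by -0.59 ± 0.12 (SE, adjusted p = 0.000434). After quantile normalization 15 members were higher and 5 lower.

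If WT Rep1 to Rep5 are set against KO and WT Rep6 to Rep10 against R47H, a pairing chosen after the values were seen and not given by the labels, the 2 mutant effects can be compared in one contrast with no shared controls. In that contrast the KO effect was called above the R47H effect in 4 members, Hspa4, Dnajc3, Canx and Herpud1. It was called below the R47H effect in 1, Dnaja1. The shares of all genes were 6.03% and 8.35%. Without 1 library the call of Hspa4 was lost in 18 of 20 fits and that of Herpud1 in 13, while those of Dnajc3, Canx and Dnaja1 held in each. The members' median was 0.01, against -0.01 for all genes. The difference of effects was 0.23 ± 0.05 (SE, adjusted p = 0.00809) for Canx, 0.25 ± 0.07 (SE, adjusted p = 0.022) for Dnajc3 and -0.27 ± 0.07 (SE, adjusted p = 0.0194) for Dnaja1. A difference between the wild-type sets enters this contrast in full, and it cannot be told apart from the mutants.

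The groups stood apart in the plane of the 2 main kinds of chaperone. For each library the log2 deviation of each gene from its mean over the 20 libraries was averaged over the 11 cytosolic and over the 22 ER genes. The cytosolic mean was -0.25 ± 0.02 in KO and 0.06 ± 0.10 in R47H, against 0.24 ± 0.06 in WT Rep6 to Rep10 and -0.04 ± 0.08 in WT Rep1 to Rep5 (SD, n = 5 each). That of the ER genes was -0.04 ± 0.01 in KO and 0.21 ± 0.07 in R47H, against 0.07 ± 0.05 in WT Rep6 to Rep10 and -0.23 ± 0.03 in WT Rep1 to Rep5. The KO libraries differed less among themselves than those of any other group on both axes. No test was made of these means.

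**Figure D4:**
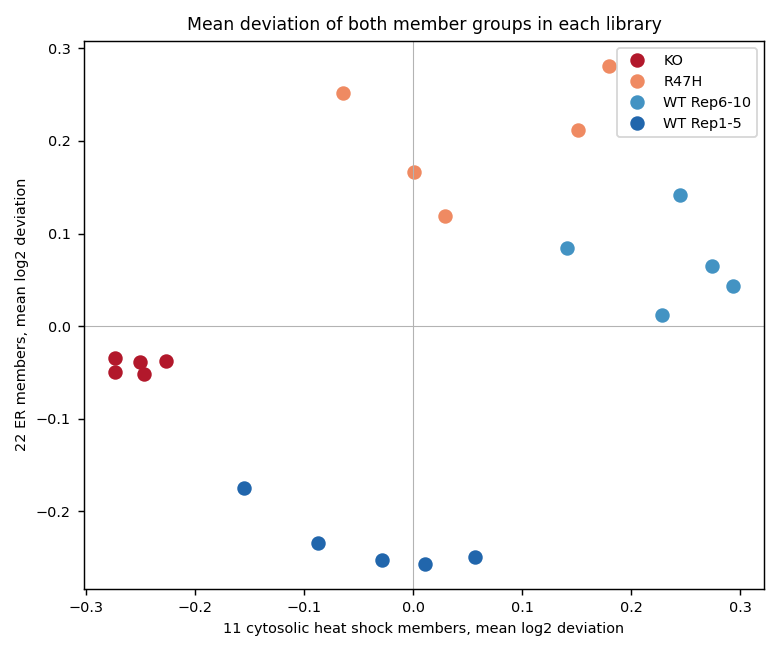
Mean log2 deviation of the 11 cytosolic heat shock genes (x axis) and of the 22 ER genes (y axis) in each library, from each gene's mean over the 20 libraries. KO libraries lie between -0.27 and -0.23 on the x axis; R47H libraries lie highest on the y axis except for 1, at 0.12, which is below 1 library of WT Rep6 to Rep10, at 0.14.

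The ER genes with an ERSE or ERSE-II match and those without are given as a description. In R47H against WT Rep1 to Rep5, 10 of the 10 ER genes with a match were higher (median 0.56) and 6 of the 9 with a window and no match (median 0.31), beside 13.9% of all tested genes. In R47H against WT Rep6 to Rep10, 4 with a match and 3 without were higher, with medians of 0.13 and 0.10, beside 12.7% of all genes. In KO against WT Rep1 to Rep5, 7 with a match and 5 without were higher, with medians of 0.27 and 0.14, beside 24.7%. In KO against WT Rep6 to Rep10, 3 with a match were higher and 5 lower (median -0.14), and 1 without was higher and 4 lower (median -0.11), beside 27.6% and 24.7%. In WT Rep6 to Rep10 against WT Rep1 to Rep5, 10 with a match and 4 without were higher, with medians of 0.37 and 0.18, beside 3.63%. No test was made, and a match in these letters is not a measured site.

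Other genes of the pathways were counted in lists written with earlier results of these data known. Against the mean of both wild-type sets, 28.9% of all tested genes were higher and 24.6% lower in KO, and 15.2% and 8.62% in R47H, and the counts of each list are to be read beside these shares. All 8 subunits of TRiC, the chaperonin that folds actin and tubulin, were lower in KO against wild type (median -0.25), with Tcp1 at -0.31 (adjusted p = 2.28e-05) and Cct7 at -0.33 (adjusted p = 6.68e-05), and in R47H none was called (limma; 1 lower and 0 higher at an unadjusted p under 0.05), though with equal sums 5 were lower. Of the 10843 tested genes, 1986 were lower in R47H against wild type with equal sums, against 935 on the deposited scale. By set, 8 TRiC subunits were lower in KO against WT Rep6 to Rep10 and 7 against WT Rep1 to Rep5, and in R47H 2 (Cct2 and Cct4) and 0. Of 19 tested Hsp90 cochaperones and other heat shock genes, 2 were higher in KO (Dnajb6 and Dedd2) and 9 lower, and in R47H 3 were higher (Chordc1, Dnajb6 and Dnajc7) and 2 lower (Fkbp5 and Hspa14), which for R47H is near the shares of all genes. By set, 10 were lower in KO against WT Rep6 to Rep10 and 7 against WT Rep1 to Rep5. In R47H none was higher against WT Rep6 to Rep10 (limma; 2 at an unadjusted p under 0.05), where Stip1, Fkbp5 and Hspa14 were lower, and 6 were higher against WT Rep1 to Rep5. Ahsa1, which stimulates the ATPase of Hsp90, averaged 106 ± 9.61 FPKQ in KO and 204 ± 34.99 in R47H, against 196 ± 10.8 in WT Rep6 to Rep10 and 200.3 ± 10.7 in WT Rep1 to Rep5 (SD, n = 5 each). Its log2 difference in KO was -0.90 (adjusted p = 3.38e-09), that of Fkbp5, an immunophilin of the Hsp90 complex that glucocorticoids induce, was -1.06 (adjusted p = 1.9e-11), and that of Stip1 (Hop), which joins Hsp70 and Hsp90, was -0.38 (adjusted p = 1.6e-07).

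Among 8 tested genes of the ER stress sensors and the PERK branch, 3 were higher in KO (Ern1, Eif2ak3 and Ppp1r15a) and 4 lower (Atf4, Ddit3, Trib3 and Atf3). In R47H 2 were higher (Ddit3 and Ppp1r15a) and 1, Trib3, lower. The KO counts were 3 and 4 against each set as well. In R47H Ern1 was also higher against WT Rep6 to Rep10 and Atf3 against WT Rep1 to Rep5. The sensors Ern1 (Ire1) and Eif2ak3 (PERK) differed by 0.81 (adjusted p = 1.31e-09) and 0.36 (adjusted p = 2.17e-06) in KO. The transcription factor Atf4, a target of PERK, averaged 80.5 ± 5.74 FPKQ in KO and 115 ± 17.98 in R47H, against 139.7 ± 21.2 in WT Rep6 to Rep10 and 116 ± 3.89 in WT Rep1 to Rep5. Its log2 difference in KO was -0.65 (adjusted p = 1.81e-06), and that of Atf3 was -0.80 (adjusted p = 1.16e-09). Of 13 other ER folding genes, 4 were higher in KO (Txndc11, Dnajc10, Uggt1 and Ganab), near the share of all genes, and 1, Ero1l, lower, while in R47H 7 were higher and none lower (limma; 1 at an unadjusted p under 0.05). Against WT Rep6 to Rep10, 3 of these were higher in KO and 4 in R47H (Txndc5, Txndc11, Fkbp2 and Ppib), and against WT Rep1 to Rep5 5 and 7. For 14 other ERAD and translocon genes the higher calls were 6 in KO and 5 in R47H, with no lower call in either by limma (none at an unadjusted p under 0.05). Os9, a lectin of ERAD, and Sec61a1, the pore of the translocon, were higher in both, by 0.26 (adjusted p = 1.99e-05) and 0.26 (adjusted p = 5.25e-06) in KO and 0.34 (adjusted p = 4.58e-06) and 0.22 (adjusted p = 0.000204) in R47H. Edem2, Selenok and Selenos made up the other R47H calls. Against WT Rep6 to Rep10 the higher calls in R47H were 3 (Os9, Sec61a1 and Selenos), and against WT Rep1 to Rep5 they were 8. The 8 mitochondrial quality control genes had 1 higher call, Clpx, and 1 lower, Htra2, in KO, also against each set. Clpx was higher in R47H against the mean of both sets but was called against neither set alone.

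Immediate early genes, which respond within minutes to handling and growth signals, were set beside the chaperones. Of 14 tested, 11 were lower and 1, Ier3, higher in KO against the mean of both sets (median -0.58), beside 24.6% and 28.9% of all tested genes. By set, 11 were lower in KO against WT Rep6 to Rep10 and 9 against WT Rep1 to Rep5. In R47H 3 were higher (Ier3, Btg2 and Nr4a1) and 1, Klf2, lower, near the shares of 15.2% and 8.62%. Against WT Rep6 to Rep10 those 3 were higher in R47H and Fos, Dusp1 and Klf2 lower, while against WT Rep1 to Rep5 Fos, Ier3, Atf3, Dusp1 and Nr4a1 were higher and none lower (limma; 0 at an unadjusted p under 0.05). In WT Rep6 to Rep10 5 were higher than in WT Rep1 to Rep5: Fos, Egr2, Ier3, Atf3 and Dusp1, beside 3.63% of all genes, with Fos at 0.92 (adjusted p = 2.85e-05) and Dusp1 at 1.36 (adjusted p = 4.05e-05). Their summed level was 496 to 562 FPKQ in KO and 719 to 849 in R47H, against 830.4 to 925 in WT Rep6 to Rep10 and 679 to 718 in WT Rep1 to Rep5. The group means of the cytosolic heat shock genes had the same order. Their part in the differences of the chaperones was not tested.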

How the data were processed

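The 20 deposited tables hold one FPKQ value per gene, read here as an FPKM on a quantile scale, since a fixed upper percentile of protein-coding genes lay near 10 in each library. How the authors defined FPKQ is not stated in the labels or headers. The submitters' processing notes name RSEM and GRCm38, with no versions or settings. Libraries were strand-specific (dUTP) and poly-A selected, with paired reads of 75 bases, per the labels' protocols. Between 85.3% and 89.3% of low values were whole multiples of 1 fragment (tolerance 0.1). The value of 1 fragment was chosen in each library to make this share largest. No count test was run, since FPKQ was taken as a normalized value like FPKM. Coordinates and shared 75-base words came from GENCODE M21, and promoters from RefSeq on GRCm38.p6.

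The 10843 of 51456 genes whose mean reached 1 FPKQ were tested as log2(FPKQ + 1), which understates changes of low genes, with limma 3.58.1 in R 4.3.3 (lmFit, eBayes with trend). All 4 groups of 5 shared one model without covariates. "Against wild type" means the mean of both set means. All adjusted p-values are Benjamini-Hochberg values over the 10843 genes, called under 0.05. An error written SE is limma's standard error, and an FPKQ error is the SD over 5 libraries. The fit was also run on simulated tables as a check of the code. Other work used Python 3.11.15, pandas 2.3.3, numpy 2.4.6, scipy 1.17.1 and matplotlib 3.10.9. No pair of libraries was identical. The members and lists were chosen with earlier results of these data known. Values in every library are given for 22 members: Hspa1a, Hspa1b, Hsf1, Cirbp, Rbm3, Hspa5, Xbp1, up to 8 each way called in a mutant with the same sign against both wild-type sets (by size in KO), and the 6 with the largest called difference between those sets. Of each list of other pathway genes up to 3 called genes with the smallest adjusted p are named, and counts of 5 or fewer are named in full; other names were chosen after their values were seen. The series text gives 5 animals per genotype. Alternatives covered the pseudocount, the low-value filter, scaling, robust moderation, library weights, a covariate (genes above 0), the control set, the groups fitted, leaving out single libraries and a replicate block.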

Additional observations from a re-analysis of the deposited data

Results flagged for a closer look

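In 8 of 160 groups of 5 libraries, over the 40 members, 1 library stood far from the rest of its group by Dixon's criterion, which chance alone would meet in about 1 in 20 groups. In KO these were Bag3 at 18.3 FPKQ in Rep1 (nearest other 20.2) and Dnajb11 at 74 FPKQ in Rep5 (nearest other 85.9). In R47H it was Hspb1 at 0.218 FPKQ in Rep2 (nearest other 0.0408). In WT Rep6 to Rep10 they were Bag3 at 27.3 FPKQ in Rep8 (nearest other 31.4), Hspa4 at 69 FPKQ in Rep9 (nearest other 61.4) and Hspd1 at 109 FPKQ in Rep9 (nearest other 95.4). In WT Rep1 to Rep5 they were Hspd1 at 90.2 FPKQ in Rep2 (nearest other 85.8) and Edem1 at 91.8 FPKQ in Rep4 (nearest other 82.6).

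The effect of KO against WT Rep1 to Rep5 differed from that of R47H against WT Rep6 to Rep10 in 5 members (limma). It was above in 4 (10.3% of those tested) and below in 1 (2.56%), beside 6.03% and 8.35% of all tested genes. The labels do not give this pairing, which was chosen after the values were seen. A difference between the wild-type sets enters it in full. The difference on the log2 scale was 0.20 for Hspa4 (adjusted p = 0.0488), 0.25 for Dnajc3 (adjusted p = 0.022), 0.23 for Canx (adjusted p = 0.00809), 0.36 for Herpud1 (adjusted p = 0.0469) and -0.27 for Dnaja1 (adjusted p = 0.0194). The calls of Canx, Dnajc3 and Dnaja1 held in each of the 20 fits without 1 library, while that of Hspa4 was lost in 18 and that of Herpud1 in 13.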

How the results depend on the processing

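For the members whose values are given in every library, the fits without 1 library kept the side of the threshold in 1051 of 1100 cases. None of these fits reversed a result. The other settings kept it in 1042 of 1158 cases and reversed 8. Counts of members or genes called are not in these totals. A difference called in neither fit could change sign and still be counted as kept. For Xbp1 in KO it was 0.067 on the mean of both sets and -0.0083 against WT Rep6 to Rep10. On the mean of both sets KO had 10 members higher and 12 lower, R47H 20 and 0, and R47H against KO 23 and 1. With WT Rep1 to Rep5 alone as control, KO had 16 members higher and 6 lower, R47H had 1 lower, and the KO difference reversed to 0.188 for Hspa5 and 0.0417 for Hsph1. With WT Rep6 to Rep10 alone, KO had 20 members lower, R47H had 8 higher and 1 lower, and the difference reversed to -0.236 for Pdia4 in KO and to -0.124 for Hsph1 in R47H. Replicate numbers did not pair libraries across groups: same-numbered libraries correlated from -0.15 to 0.31 in their deviations, and own numbers correlated best in 4 of 15 cases. With a replicate block on KO, R47H and WT Rep1 to Rep5, KO had 16 members higher and 5 lower, R47H 1 lower, and Hspa5 and Hsph1 in KO were 0.188 and 0.0417; the same libraries without the block gave 16, 6, 1, 0.188 and 0.0417. Hspa1b in KO against WT Rep1 to Rep5 missed the threshold under the block (adjusted p = 0.0633). No paired analysis was possible between the wild-type sets because their numbers differ. Equal sums gave R47H 12 members higher and 3 lower and R47H against KO 3 lower. Quantile normalization gave R47H 2 lower and R47H against KO 15 higher and 5 lower. Median log ratio scaling gave 3 lower in R47H against KO, and library weights and the covariate of genes above 0 gave 2 each; that covariate left R47H 13 members higher and 1372 genes called in all. The all-gene count between the wild-type sets, 706, became 2221 with library weights and 1429 with only the groups compared. For each of these shifts the cause was not tested.

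Without 1 library, KO against wild type had 10 to 11 members higher and 12 to 13 lower, R47H 18 to 21 higher and 0 lower, R47H against KO 20 to 24 higher and 1 to 2 lower, and the wild-type sets 17 to 20 higher and 1 lower, with 417 to 617 genes called in all. Some calls near the threshold were lost in single fits: Hspe1 in R47H against wild type in 9 (adjusted p up to 0.147), Rbm3, Hspa1b, Hsf1 and Hspa1a in R47H against KO in 6, 6, 5 and 3 (up to 0.13), and Canx, Hsp90aa1, Dnajb9 and Dnaja1 between the wild-type sets in 4, 4, 4 and 1 (up to 0.0678). Low FPKQ limits the precision of Hspa1a and Hspa1b, and shared sequence that of 8 members; a difference that missed the threshold is not shown to be absent.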
